A study of Mus musculus with 4 samples.

Results

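Cells carrying transcripts of the neutrophil primary granule were picked out among CD45+ cells (leukocytes) of mouse spinal cord. A cell was taken if Elane, Mpo, Prtn3 and Ctsg together had at least 10 UMIs (unique molecular identifiers, 1 per captured transcript) and if no Cd3e (T cell) or Cd79a (B cell) UMI was found. The rule found 827 of the 28598 cells that passed the quality filter. They are called granule-gene cells here, and the summed UMIs of the 4 genes are called rule UMIs. The working name of granulocyte-monocyte progenitors held in part only. The cells with the most rule UMIs carried all 4 genes and more of some precursor genes, such as Kit and Myb. Their summed stem and progenitor genes were no higher than near the threshold, while another list of 12 granulocyte-monocyte progenitor genes summed higher. Cells near the threshold were carried mostly by Prtn3 and had high monocyte transcripts. Because the 4 genes chose the cells, their levels against other cells are a description without a test.

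All mice were C57BL/6 with experimental autoimmune encephalomyelitis (EAE), an immunisation model of central nervous system autoimmunity. The control group received Ctrl MO and the other group Reg1-MOs, intracranially on day 9 after immunisation, and spinal cords were taken on day 16. The labels spell out neither MO nor Reg1. Here MO is taken to be a morpholino, and Reg1 to stand for Regnase-1 (gene Zc3h12a), which cuts messenger RNAs of inflammation. Each group had 2 libraries, and nothing in the labels says how many mice a library holds, so p-values measure only the spread between these libraries, which may be technical. The cells given were the CD45+ sorted fraction left after collagenase digestion and a Percoll step, and no group without EAE or without an injection was used.

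Granulocyte-monocyte progenitors are dividing cells of the bone marrow that give rise to neutrophils and monocytes. While a neutrophil precursor is still dividing it makes the azurophil or primary granule proteins, among them the serine proteases neutrophil elastase (Elane), proteinase 3 (Prtn3) and cathepsin G (Ctsg), and myeloperoxidase (Mpo). It later stops dividing and turns to secondary granule proteins such as lactoferrin (Ltf) and cathelicidin (Camp). Irf8 and Klf4 are transcription factors of the monocyte branch, and Cebpe and Gfi1 are factors of the granulocyte branch; PU.1 (Spi1) and Myb act in myeloid precursors of both.

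The sequence next to the start of each rule gene is shown because the cells were defined by these 4 genes together. Elane and Prtn3 are neighbours on chromosome 10 (79886312 to 79888216 and 79879667 to 79883174), Mpo lies on chromosome 11 (87793784 to 87804412) and Ctsg on chromosome 14 (56099885 to 56102574), in RefSeq on GRCm38.p6. The 250 bases upstream of each annotated start follow, 5′ to 3′ on the gene's own strand, at chr10:79886062-79886311 (plus strand) for Elane, chr11:87793534-87793783 (plus) for Mpo, chr10:79879417-79879666 (plus) for Prtn3 and chr14:56102575-56102824 (minus) for Ctsg. Capitals mark matches to GAGGAA, the core bound by PU.1, and to AACGG or AACTG, cores bound by Myb, on either strand.
Elane: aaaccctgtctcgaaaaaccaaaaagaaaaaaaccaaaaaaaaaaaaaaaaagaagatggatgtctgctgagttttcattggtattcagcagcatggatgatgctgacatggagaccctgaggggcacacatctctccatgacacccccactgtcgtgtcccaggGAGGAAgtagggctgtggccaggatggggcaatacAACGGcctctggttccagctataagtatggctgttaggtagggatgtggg
Mpo: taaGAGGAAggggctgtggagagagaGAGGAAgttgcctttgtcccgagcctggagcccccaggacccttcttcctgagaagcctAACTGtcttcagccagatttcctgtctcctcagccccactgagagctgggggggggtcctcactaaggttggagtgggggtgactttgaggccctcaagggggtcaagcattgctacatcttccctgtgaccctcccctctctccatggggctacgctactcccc
Prtn3: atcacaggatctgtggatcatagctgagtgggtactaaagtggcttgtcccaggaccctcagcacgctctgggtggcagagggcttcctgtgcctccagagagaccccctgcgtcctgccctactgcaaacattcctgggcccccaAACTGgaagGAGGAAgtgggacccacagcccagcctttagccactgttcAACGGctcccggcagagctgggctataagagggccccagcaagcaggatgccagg
Ctsg: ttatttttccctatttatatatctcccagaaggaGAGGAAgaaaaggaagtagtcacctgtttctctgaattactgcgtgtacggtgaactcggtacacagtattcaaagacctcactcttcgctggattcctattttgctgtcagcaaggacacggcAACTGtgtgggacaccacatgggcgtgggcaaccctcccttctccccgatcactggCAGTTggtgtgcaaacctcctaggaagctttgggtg
GAGGAA was found upstream of 4 of the 4 genes, against 23.1% of 27025 RefSeq promoter windows of the same length. In Elane it began 85 bases before the start, in Prtn3 95, in Ctsg 216, and in Mpo 247 and 224 bases before it. AACGG was found in 2 of the 4 (Elane and Prtn3; 14.8% of windows) and AACTG in 3 of the 4 (Mpo, Prtn3 and Ctsg; 39.1%). TTGCNNAA, a C/EBP motif searched on both strands, was found in 0 of the 4 and in 9.55% of windows. These matches describe letters in a window and say nothing of binding.

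The 4 libraries held 5256 to 9103 barcodes, 75472324 to 174552218 UMIs and 5170 to 8715 kept cells. Granule-gene cells were deep: their median was 28883 to 33301 UMIs per library, against 9948 to 12103 in all kept cells. Scrublet, a doublet caller, marked 10.6% and 6.95% of them in controls 1 and 2, and 16.7% and 4.23% in Reg1-MO 1 and 2, against 4.20% to 7.29% of kept cells. The rule on Cd3e and Cd79a left out 8 to 31 cells per library that had at least 10 rule UMIs. Between libraries, 175 of 28413 kept barcodes were shared, and 2 of 825 barcodes of granule-gene cells were such cells in more than 1 library. Reg1-MO 1 stood apart in the results below, with the lowest rule gene levels and the highest interferon and macrophage transcripts.

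Granule-gene cells made up 4.43% of kept cells in control 1 (358 of 8081; 95% Wilson interval 4.003% to 4.90%) and 4.55% in control 2 (302 of 6632; 4.08% to 5.08%). They made up 1.10% in Reg1-MO 1 (96 of 8715; 0.903% to 1.34%) and 1.37% in Reg1-MO 2 (71 of 5170; 1.09% to 1.73%). The control libraries were both higher than the Reg1-MO libraries, and the groups did not overlap. The means were 4.49% ± 0.0874 (SD, n = 2) and 1.24% ± 0.192, a difference of -3.25 percentage points and a 3.63-fold ratio (two-sided exact permutation p = 0.33, the smallest that 2 against 2 libraries allow). The Wilson intervals cover counting error only.

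The lower share held at every number of rule UMIs examined. Cells with 10 to 19 rule UMIs were 2.75-fold rarer in the Reg1-MO libraries, those with 20 to 99 were 3.51-fold, those with 100 to under 500 were 3.92-fold, and those with 500 or more were 5.52-fold rarer. In each of these ranges the 2 groups did not overlap. The topmost range rests on 90, 66, 8 and 15 cells in control 1, control 2, Reg1-MO 1 and Reg1-MO 2, which are 1.11%, 0.995%, 0.0918% and 0.290% of kept cells. Its ratio was 3.63-fold without Reg1-MO 1 and 11.5-fold without Reg1-MO 2. Whether the fold differed between ranges was not tested. Each cell was also thinned to 5000 UMIs before the rule was applied, which removes depth as a difference between the cells scored. The shares were then 3.12% and 0.656%, a 4.75-fold ratio. Cells under 5000 UMIs also left the total. Of the mature neutrophil cells described below, 589 of 1060 and 623 of 958 left it in the controls. After Reg1-MO, 160 of 364 and 330 of 529 left it.

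**Figure D1:**
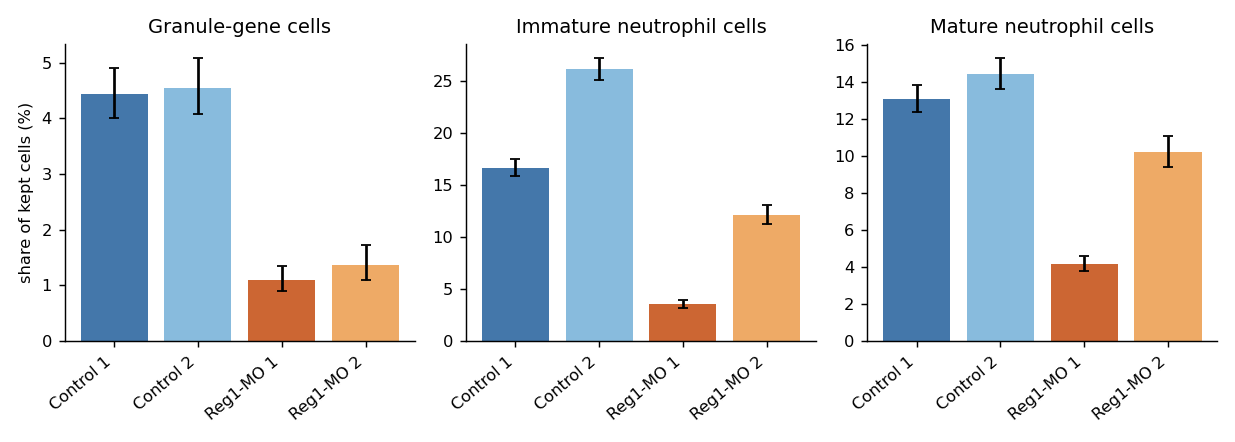
Share of kept cells (%, bars) in each library for granule-gene cells, immature neutrophil cells and mature neutrophil cells, with 95% Wilson intervals as error bars; the vertical axes differ between panels. Both Reg1-MO bars lie below both control bars in each panel, from 1.10% and 1.37% against 4.43% and 4.55% for granule-gene cells. The neutrophil sets are named after the transcripts that chose them, and the mature set also carried macrophage transcripts.

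Other sets of cells chosen by neutrophil transcripts had lower shares as well. Immature neutrophil cells (at least 10 UMIs of Ltf, Camp and Ngp) were 16.7% and 26.1% of kept cells in the controls, compared with 3.53% and 12.1% after Reg1-MO. Mature neutrophil cells (at least 50 UMIs of S100a8 and S100a9 and under 10 of the former) were 13.1% and 14.4% against 4.18% and 10.2%. Neither set overlapped between groups, with ratios of 2.73-fold and 1.91-fold (exact permutation p = 0.33 for each). Per 100 neutrophil cells of both sets there were 14.9 and 11.2 granule-gene cells in the controls, compared with 14.3 and 6.15 after Reg1-MO, so by that measure the groups overlapped. With only cells of at least 100 rule UMIs counted, the values were 7.19 and 4.72 against 3.87 and 2.60, without overlap. Shares of kept cells depend on all other cells: monocyte cells (at least 5 UMIs of Ly6c2, F13a1 and Ccr2, and below the neutrophil limits) were 23.9% and 21.0% in the controls, compared with 37.9% and 25.5% after Reg1-MO (exact permutation p = 0.33). Fewer granule-gene cells and more cells of other kinds cannot be told apart from shares.

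The number of rule UMIs per cell spanned from 10 to 3953. The median was 87.5 in control 1, 56.5 in control 2, 23.5 in Reg1-MO 1 and 54.0 in Reg1-MO 2, so Reg1-MO 1 was lowest and the other Reg1-MO library was close to control 2. In the richest cells the 4 genes supplied up to 5.86% to 6.71% of all UMIs of the cell, depending on the library. All 4 genes were detected in 58.4%, 52.3%, 34.4% and 52.1% of the cells of control 1, control 2, Reg1-MO 1 and Reg1-MO 2.

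**Figure D2:**
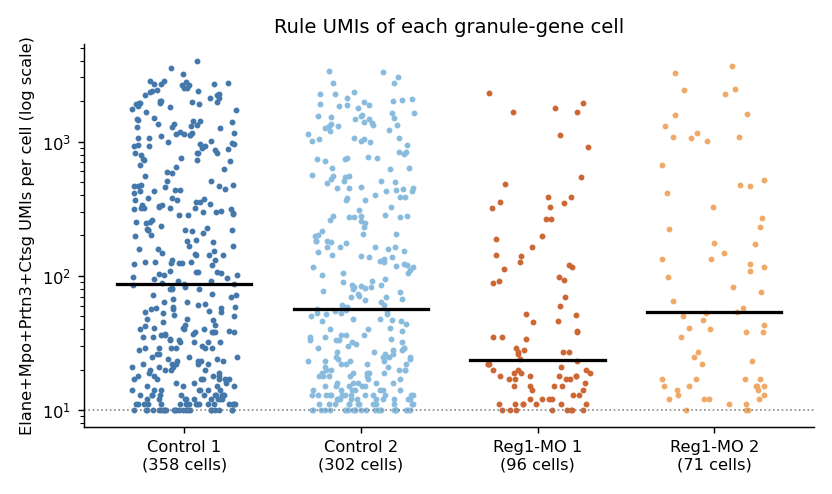
Rule UMIs (Elane, Mpo, Prtn3 and Ctsg summed, log axis) of each granule-gene cell by library; each point is 1 cell, the black bar is the median and the dotted line is the threshold of 10. The medians are 87.5, 56.5, 23.5 and 54.0.

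The 4 genes did not appear together along this range. At 10 to 19 rule UMIs (239 cells), Prtn3 supplied 77.8% of the rule UMIs and Mpo 2.32%, and 3.35% of the cells had all 4 genes. At 500 or more (179 cells), Elane supplied 38.6%, Prtn3 27.8%, Mpo 20.7% and Ctsg 12.95%, and all 4 genes were found in 100% of the cells. Prtn3 was thus the gene that carried cells over the threshold, and the mix turned toward Elane and Mpo as the sum grew. Just inside the threshold, 97 cells with 10 or 11 rule UMIs had 80.4% of them from Prtn3, and just outside, 147 cells with 8 or 9 had 85.7%.

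Prtn3 was also the rule gene most often found outside these cells. With each cell thinned to 5000 UMIs, Prtn3 was detected in 14.0% of monocyte cells, 6.91% of immature neutrophil cells and 2.36% of T cells (at least 2 Cd3e UMIs), against 90.8% of granule-gene cells. T cells do not make these genes, but the T cell set included 34 of 6655 scored cells with at least 10 rule UMIs, and 1 of its cells held 789 Elane UMIs. For Elane the shares were 67.9% of granule-gene cells, 1.05% of monocyte cells and 1.37% of T cells, for Mpo 47.1%, 0.467% and 0.887%, and for Ctsg 54.7%, 0.740% and 0.841%. The other sets hold no cell with at least 10 rule UMIs that lacks Cd3e and Cd79a, so the T cell shares were also taken without those 34 cells: 1.92% for Prtn3, 1.15% for Elane, 0.755% for Mpo and 0.634% for Ctsg. Prtn3 was found in monocyte cells far more often than that, and the other 3 genes at shares near it.

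Elane measured 4402 and 4433 CPM (counts scaled to a common total; the UMIs of a gene over all UMIs of the granule-gene cells of a library, times 1000000) in controls 1 and 2, and 1408 and 3928 in Reg1-MO 1 and 2. Mpo measured 2233 and 2393 CPM in the controls, compared with 651 and 2004 after Reg1-MO. Prtn3 measured 3881 and 3124 CPM, and 1673 and 3845, and was the rule gene whose groups overlapped. Ctsg measured 1563 and 1583 CPM, and 535 and 1267. In each gene Reg1-MO 1 was the lowest library, and Reg1-MO 2 was far nearer to the controls. The granule-gene cells held most transcripts of these genes, from 62.0% of the Prtn3 UMIs of Reg1-MO 1 to 99.3% of the Mpo UMIs of Reg1-MO 2.

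Beyond the rule genes, the genes with the highest pooled CPM in granule-gene cells relative to all other kept cells, among genes of at least 200 CPM, were led by another marker of granulocyte and monocyte precursors, Ms4a3. Its level was 86.8-fold higher (598 against 6.89 CPM), with a range of 50.5-fold to 140-fold over the libraries. Fcnb, which encodes the granule lectin ficolin B, was 22.1-fold higher. Serpinb1a, an inhibitor of the granule serine proteases, was 6.37-fold higher. Prss34, a protease of basophils and mast cells, was 60.1-fold higher, at 166 and 1229 CPM in the controls, compared with 218 and 597 after Reg1-MO, so control 2 carried most of it. Of the remaining leading genes most act in DNA replication and mitosis, among them Rrm2 (9.48-fold), Pclaf (7.08-fold), Stmn1 (6.24-fold), Birc5 (5.86-fold) and Top2a (5.06-fold). Since every gene of these cells went into describing them, these ratios carry no test.

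Among the other primary granule genes, Prss57, a serine protease of azurophil granules, went with rule UMIs from a mean of 5.81 CPM at 10 to 19 rule UMIs to 18.3, 40.8 and 241 CPM in the 3 higher ranges. Nkg7, a granule membrane protein of lymphocytes, followed the same order, at 16.4, 44.2, 107 and 672 CPM. Cst7, which encodes the protease inhibitor cystatin F, went from 22.9 to 271 CPM. Other members of the list did not follow. Lyz2 (lysozyme) went from 15000 to 2236 CPM, and Ctsc, which encodes the cathepsin that activates the granule proteases, from 1251 to 384 CPM; both are abundant in monocyte cells as well, at 16171 and 1380 CPM. Bpi was near 0 (0.242% of cells).

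Secondary granule transcripts were present but not tied to the highest rule UMIs. Ltf was 783 and 853 CPM in the lower 2 ranges and 210 and 105 CPM in the upper 2. Camp was 4993, 7832, 6671 and 3727 CPM. At 5000 UMIs per cell, Camp was detected in 31.5% of granule-gene cells, 89.3% of immature neutrophil cells and 10.1% of T cells, and Ltf in 20.6%, 79.7% and 4.51%. The S100a8 transcript of mature neutrophils was found in 81.3% of granule-gene cells but also in 41.4% of T cells, which should lack it. At least 10 UMIs of Ltf, Camp and Ngp were found in 250 of the 827 cells (30.2%).

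Genes of stem cells and early progenitors were detected in part of the cells. Kit, the stem cell factor receptor, had a UMI in 21.8%, Cd34 in 19.6% and the cytokine receptor Flt3 in 30.5% of granule-gene cells, and any of the 3 in 433 of 827 (52.4%). At 5000 UMIs per cell these shares were 5.02%, 6.00% and 11.9%, against 1.76%, 1.25% and 1.35% of T cells and 1.83%, 4.23% and 9.51% of monocyte cells, so Flt3 was nearly as frequent in monocyte cells. Kit went from 3.98 CPM at 10 to 19 rule UMIs to 27.4 CPM at 500 or more, and Myb, a transcription factor of dividing precursors, from 10.4 to 165 CPM. Igfbp4 went from 14.5 to 252 CPM. Myc went from 9.02 to 56.1 CPM. Flt3 and Cd34 had no such order: Flt3 was 25.6, 21.8, 24.0 and 8.33 CPM, and Cd34 18.1, 11.7, 26.2 and 26.2 CPM. The whole list of 14 stem and progenitor genes, Ly6a among them, summed to means of 912, 614, 658 and 898 CPM. Another list, of 12 granulocyte-monocyte progenitor genes not all printed here, summed to means of 3987, 3982, 5862 and 13769 CPM. At 5000 UMIs per cell, Kit, Cd34 or Flt3 was found in 20.5% of cells with at least 100 rule UMIs. The share in all granule-gene cells was 19.6%.

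**Figure D3:**
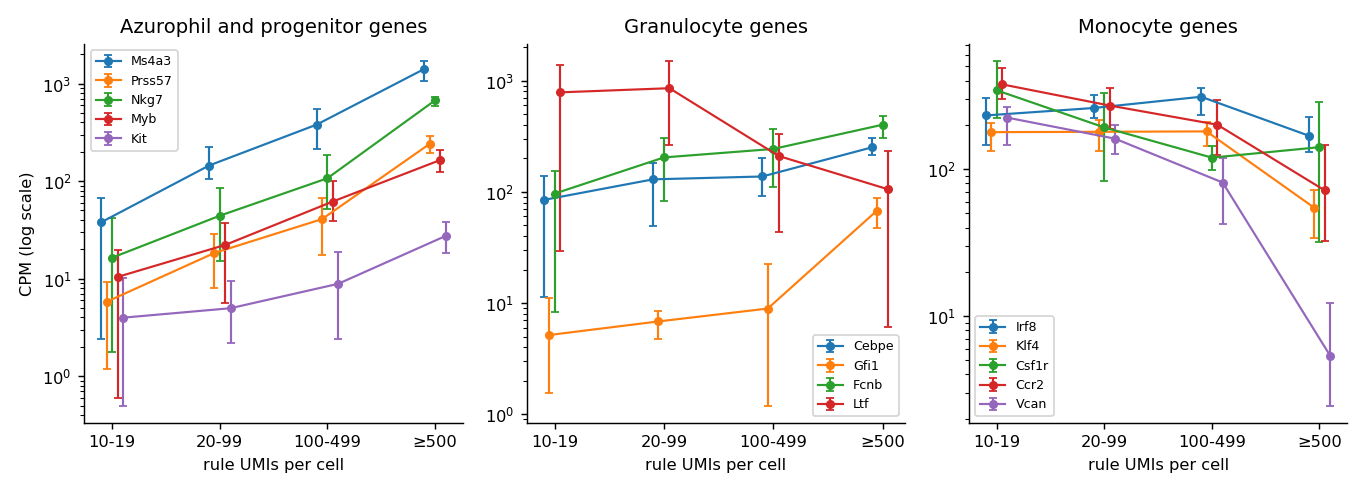
CPM (log axis) of precursor, granulocyte and monocyte genes in granule-gene cells against their rule UMIs; points are means of 4 libraries and bars span the lowest to the highest library, with values under 0.5 drawn at 0.5. Ms4a3 goes from 38.0 to 1411 CPM and Vcan from 224 to 5.36 CPM across the ranges.

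Monocyte genes ran the other way. Vcan (versican) was 224 CPM at 10 to 19 rule UMIs and 161, 81.0 and 5.36 CPM above, and Ccr2, the receptor that brings monocytes into inflamed tissue, was 377, 271, 200 and 71.5 CPM. The transcription factor Klf4 was 178, 179 and 180 CPM in the lower 3 ranges and 54.6 CPM in the topmost. Irf8 was 232, 260 and 311 CPM and then 169 CPM, with the libraries of the topmost range between 131 and 225 CPM. In the lowest range 4 of 4 libraries had Vcan above 146 CPM, and in the topmost none was above 12.3 CPM. Depth moved along with rule UMIs, from a median of 23306 to 45542 UMIs per cell, and its part in these trends was not tested.

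The granulocyte factors were highest in the topmost range. Gfi1 was 5.16, 6.84 and 8.92 CPM and then 67.8 CPM, and Cebpe was 84.5, 129, 137 and 250 CPM. Spi1, which encodes PU.1, stayed between 362 and 445 CPM, and Cebpa between 62.3 and 76.1 CPM. Cebpb, a factor of mature and stimulated myeloid cells, went from 2016 to 793 CPM. Factors of the erythroid and megakaryocyte line were low: mean Klf1 and Gata1 were 0.340 and 0.815 CPM.

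Irf8 and the granulocyte factors were seldom in the same cell. With 5000 UMIs per cell, 817 cells could be scored; Irf8 was detected in 401 and Gfi1 in 80, and only 2 had both. Gfi1 was found in 0.499% of cells with Irf8 and in 18.8% of cells without it. Cebpe was found in 7.48% of cells with Irf8 and in 51.9% without, and 30 cells had both. The pattern was also seen among cells with at least 100 rule UMIs, where 1 of 144 cells with Irf8 had Gfi1 (0.694%), against 31.6% of those without. In all, 369 cells had Irf8 and neither granulocyte factor, 237 had Cebpe or Gfi1 and no Irf8, 32 had both kinds and 179 had neither.

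These 2 kinds of cell differed in the genes that had not sorted them. In the Irf8 cells, F13a1, a coagulation factor gene of monocytes, averaged 1615 CPM (libraries from 1089 to 1922), against 177 CPM (120 to 281) in the Cebpe or Gfi1 cells. Ms4a6c averaged 765 against 114 CPM, and Irf5 154 against 19.9 CPM. In the Cebpe or Gfi1 cells, Fcnb averaged 713 CPM (671 to 742), against 31.6 CPM (25.02 to 39.3), and Camp 18723 against 219 CPM. These 5 genes were chosen after their values were seen, and the library values of the 2 kinds did not overlap for any of them. The same held for 30.5% of the 11496 genes with enough counts to be tested (24.4% higher in the Irf8 cells and 6.08% higher in the others). Others overlapped, among them Spi1 (423 against 429 CPM), Plac8 (1762 against 1857), Calr (634 against 717) and Chil3 (6192 against 10191). Both kinds carried the rule genes, Elane at 1381 CPM in the Irf8 cells and 7759 CPM in the others, and Mpo at 901 and 3545 CPM. The split is a description of detection at fixed depth, and a cell in which a factor was not detected may still express it.

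**Figure D4:**
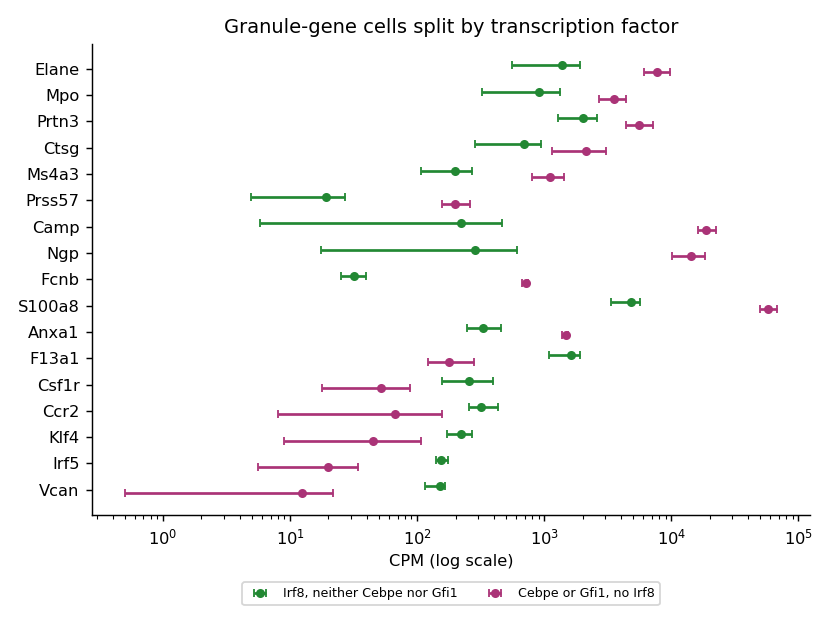
CPM (log axis) of 17 genes in granule-gene cells with Irf8 and neither Cebpe nor Gfi1 (green) and in those with Cebpe or Gfi1 and no Irf8 (purple); points are means of 4 libraries and bars span the lowest to the highest library, with values under 0.5 drawn at 0.5. Camp averages 219 against 18723 CPM and F13a1 1615 against 177 CPM, and the genes were picked among the 30.5% of genes whose bars do not overlap.

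The balance of the 2 kinds differed between the groups. Cells with Cebpe or Gfi1 and no Irf8 were 31.9% and 33.7% of granule-gene cells in the controls, compared with 9.47% and 21.1% after Reg1-MO. Cells with Irf8 and neither of the others were 47.6% and 36.3% in the controls, compared with 57.9% and 53.5% after Reg1-MO. The groups did not overlap in either share. The difference was -17.5 percentage points (32.8% ± 1.24 against 15.3% ± 8.24, SD, n = 2; exact permutation p = 0.33, the smallest possible) for the granulocyte factors, and 13.8 points for Irf8 (42.0% ± 7.95 against 55.7% ± 3.09; exact permutation p = 0.33). Among cells with at least 100 rule UMIs, the granulocyte share was 47.4% and 49.6% in the controls, compared with 19.2% and 23.3% after Reg1-MO, the latter from 26 and 30 cells. These shares were examined after the co-detection had been seen. Markers of other cell types also differed, in UMIs summed over all granule-gene cells and not by kind. Of 8 microglia markers, 8 had a log2 fold change of Reg1-MO over control above 0 (median 1.15, 6 without overlap between groups). So did 5 of 6 conventional dendritic cell markers, Flt3 being the lower one (median 1.71, 4 higher without overlap). Of all genes tested, 19.2% were higher without overlap. The microglia list summed to 545 and 262 CPM in the controls, compared with 1007 and 572 after Reg1-MO, and the dendritic cell list to 38.5 and 51.6 against 46.1 and 33.3 CPM. Their part in the shares was not tested.

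Most granule-gene cells carried transcripts of dividing cells. With 5000 UMIs per cell, Mki67 or Top2a, genes of dividing cells, were detected in 80.1%, 65.3%, 55.8% and 80.3% of the cells of control 1, control 2, Reg1-MO 1 and Reg1-MO 2. The corresponding shares were 15.2% to 21.1% of immature neutrophil cells, 9.37% to 11.04% of monocyte cells and 24.4% to 25.6% of T cells over the libraries. The summed level of 25 S phase genes averaged 2040 CPM in granule-gene cells and 459 CPM in immature neutrophil cells, and that of 25 G2 and M phase genes 5084 and 2541 CPM. Rrm2, a subunit of ribonucleotide reductase that makes DNA precursors, measured 249 and 207 CPM in the controls, compared with 140 and 264 after Reg1-MO. By rule UMIs, the share with Mki67 or Top2a had its lowest mean in both groups at 10 to 19 (33.3% to 81.8% over the libraries) and 66.7% to 94.0% in the 3 higher ranges.

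The share of cells with Mki67 or Top2a overlapped between the groups. It was 72.7% ± 10.4 (SD, n = 2) in the controls and 68.0% ± 17.3 in the Reg1-MO libraries, a difference of -4.66 points (two-sided exact permutation p = 1). Of the 25 S phase genes 17 lay below 0 (median -0.11) and of the 25 G2 and M phase genes 21 (median -0.13), with 0 called by edgeR in either list. Without Reg1-MO 1 the difference in the share was 7.59 points, and without control 1 it was 2.70 points, so its direction rests on those libraries.

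Transcripts of other cell types were checked. Of 8 B and plasma cell markers 6 were detected, summing to 66.1 to 144 CPM over the libraries, against a mean of 49.1 CPM in monocyte cells and 160 CPM in other kept cells. Nearly all of it was Ighm, the immunoglobulin heavy chain gene (80.9 CPM, in 67.7% of granule-gene cells), and Cd79b, a part of the B cell receptor (13.1 CPM, in 29.6%), while Iglc2 was at 0. Of 6 NK cell markers 4 were detected, summing to 1.85 to 12.7 CPM, and Ncr1 and Eomes were at 0. The summed T cell list was 6.57 to 24.9 CPM over the libraries, against 949 CPM in the mean of other kept cells. Macrophage transcripts were present: 127 cells (15.4%) had at least 10 UMIs of C1qa, C1qb and C1qc, namely 14.0% and 10.3% of the control cells against 38.5% and 12.7% of the Reg1-MO cells, with Reg1-MO 1 highest. At least 10 UMIs of the basophil genes Mcpt8, Cpa3 and Prss34 were found in 32 cells (3.87%), 1.12% and 7.62% of the control cells against 3.12% and 2.82% of the Reg1-MO cells. Without those 32 cells the share difference was -3.09 points.

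Gene expression in granule-gene cells was compared between Reg1-MO and control libraries, to ask whether the cells found differed as well as their share. Cells with at least 100 rule UMIs were 48.3% and 42.1% of them in the controls, compared with 27.1% and 42.3% after Reg1-MO. Sums over cells cannot tell a change within cells from a change in their mix. UMIs were summed per library and tested with the quasi-likelihood test of edgeR. No gene passed at a Benjamini-Hochberg adjusted p under 0.05 (0 of 11496, 0%), while 881 had an unadjusted p under 0.05 and DESeq2 called 33 (0.287%), 7 higher (0.0609%) and 26 lower (0.226%). On simulated counts of the same depth the edgeR test recovered 79% of 4-fold and 5% of 2-fold changes, so 2-fold changes were mostly out of reach. Of all genes tested, 41.5% had library values that did not overlap between groups, 19.2% higher and 22.4% lower in Reg1-MO, and the counts of members that follow are to be read against those shares. The values below are CPM after TMM normalisation (a scaling that aligns libraries on most of their genes). The ± after a log2 fold change is a standard error worked out from the fold change and the edgeR test statistic. It is not an SD between libraries.

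The rule genes chose the cells, and their levels are described first. The log2 fold change of Reg1-MO over control was -0.74 for Elane, -0.81 for Mpo, -0.35 for Prtn3 and -0.81 for Ctsg, given without a test because the rule used these genes. Without Reg1-MO 1 these values were -0.19, -0.23, 0.11 and -0.34, and without Reg1-MO 2 they were -1.62, -1.80, -1.04 and -1.53, so their size, and for Prtn3 the sign, rests on Reg1-MO 1.

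Of the 11 other primary granule genes tested, 0 were called, 5 lay above 0 and 6 below (median -0.17), with 1 higher and 6 lower without overlap. Ctsc was the higher one, at 662 and 384 CPM in the controls, compared with 1810 and 865 after Reg1-MO (log2 fold change 1.36 ± 0.45). Lyz2, the most abundant, was 7050 and 8472 against 10512 and 8338 CPM, with overlap (0.28 ± 0.18). Among the 6 lower were Serpinb1a (646 and 720 against 202 and 456 CPM, -1.05 ± 0.40) and Prss57 (110 and 102 against 31.0 and 78.2 CPM, -0.97 ± 0.44).

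Of the 14 secondary and tertiary granule genes tested, 0 were called and 7 had lower values in both Reg1-MO libraries without overlap. Chil3, a chitinase-like protein of myeloid precursors and neutrophils, was 9479 and 13027 CPM in the controls, compared with 3424 and 3268 after Reg1-MO. Both Reg1-MO values were below both control values, at a log2 fold change of -1.75 ± 0.19 (edgeR adjusted p = 0.558; DESeq2 adjusted p = 1.23e-06). The collagenase gene Mmp8 was 194 and 277 CPM against 97.9 and 73.5 (-1.45 ± 0.26). Camp (6200 and 7364 against 1960 and 6790 CPM), Ngp (5395 and 6637 against 1291 and 5588) and Lcn2 (2130 and 2907 against 1039 and 2149) overlapped, with Reg1-MO 1 the lowest. The median log2 fold change of the list was -0.68, beside 0.00 over all genes tested. The list summed to 9897 to 33958 CPM over the libraries in granule-gene cells. It also varied between libraries in T cells (1472 to 6685 CPM) and in monocyte cells (2726 to 14189 CPM). The part of neutrophil RNA from other cells in these values was not tested.

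Among the 13 stem and progenitor genes tested, 12 lay below 0 and 8 of them had no overlap (median -0.94), with 0 called. Flt3 was 24.7 and 42.6 CPM in the controls, compared with 4.09 and 5.10 after Reg1-MO, the groups being far apart (log2 fold change -2.88 ± 0.38; edgeR adjusted p = 0.629; DESeq2 adjusted p = 2.15e-05). It was found in 35.5% and 35.8% of control cells against 10.4% and 9.86% of Reg1-MO cells. Kit was 12.99 and 20.2 CPM against 4.81 and 8.37 (-1.36 ± 0.39), and Myb 78.7 and 98.5 against 27.4 and 61.9 (-1.003 ± 0.41). Cdk6, a kinase that drives entry into the cell cycle, was 235 and 320 against 113 and 193 CPM. Ly6a, also induced by interferon, was the member above 0, at 364 and 78.6 CPM against 892 and 98.99.

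Among the transcription factors none was called, and the granulocyte list was mixed. Gfi1 was 32.8 and 35.9 CPM in the controls, compared with 7.94 and 18.2 after Reg1-MO (log2 fold change -1.43 ± 0.40), and Cebpe 180 and 188 against 64.7 and 161 (-0.71 ± 0.44). Both were lower in each Reg1-MO library than in each control. Irf8 was 228 and 184 against 307 and 247 CPM (0.43 ± 0.19), and Klf4 107 and 139 against 196 and 148 (0.49 ± 0.22), higher without overlap. Spi1 was 410 and 408 against 424 and 439 CPM (0.08 ± 0.13). Of 8 monocyte and dendritic cell factors tested, 8 lay above 0 (median 0.40), but only Irf8 and Klf4 had no overlap, a share near that of all genes. Of 11 granulocyte factors 7 lay below 0 and 4 above (median -0.44), with 5 lower and 3 higher without overlap; among the 3 higher were Spi1 and Runx1 (0.25 ± 0.15).

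The monocyte lineage list had 8 of 12 members above 0 (median 0.46), 7 of them without overlap, and 0 called. None of its 4 most abundant members was among those 7: Ly6c2, a surface marker of inflammatory monocytes, was 1727 and 1633 CPM in the controls, compared with 1484 and 1626 after Reg1-MO (log2 fold change -0.11 ± 0.13), F13a1 had -0.07 ± 0.19, Fn1 -0.31 ± 0.39 and Ctss 0.74 ± 0.56, the last 3 with overlap. The members below were chosen after their values were seen. Ccr2 was 166 and 155 CPM in the controls, compared with 328 and 272 after Reg1-MO (0.91 ± 0.16). Csf1r, the receptor for the macrophage growth factor, was 172 and 104 against 378 and 176 (1.01 ± 0.45). Among cells with at least 100 rule UMIs, where 48.5% of all genes tested had no overlap (23.2% higher and 25.3% lower), 10 of 12 lay above 0 and 9 had no overlap (median 0.82). In those cells the 7 microglia markers tested also all lay above 0 without overlap (median 1.81), for example P2ry12 at 8.12 and 4.92 against 33.8 and 30.6 CPM. The part of microglia or macrophage RNA in the monocyte values was not tested.

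Genes of protein folding in the endoplasmic reticulum, through which granule proteins pass, were mostly higher in both Reg1-MO libraries, short of the adjusted threshold. Of 15 tested, 13 lay above 0 and 12 had no overlap (median 0.44), with 0 called; 7 had an unadjusted p under 0.05. Hspa5, the chief chaperone of the compartment, was 521 and 441 CPM in the controls, compared with 801 and 814 after Reg1-MO. Both Reg1-MO values lay well above both controls (log2 fold change 0.75 ± 0.15; edgeR adjusted p = 0.634). Hsp90b1 was 450 and 359 against 645 and 601 CPM (0.62 ± 0.17), and Creld2 40.1 and 26.9 against 64.9 and 71.7 (1.02 ± 0.24). The calcium-binding chaperone Calr was 717 and 610 against 774 and 787 CPM (0.23 ± 0.15), and the disulfide isomerase Pdia3 290 and 224 against 358 and 340 (0.44 ± 0.18). Unlike the rule genes, these values were alike in the 2 Reg1-MO libraries. Among cells with at least 100 rule UMIs, 14 of 15 lay above 0, 12 without overlap (median 0.46). The list summed to 3312 to 5008 CPM over the libraries in granule-gene cells. It also varied between libraries in immature neutrophil cells (1008 to 2864 CPM), monocyte cells (2208 to 4819 CPM) and T cells (1564 to 3034 CPM). Whether the difference was particular to granule-gene cells was not tested.

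**Figure D5:**
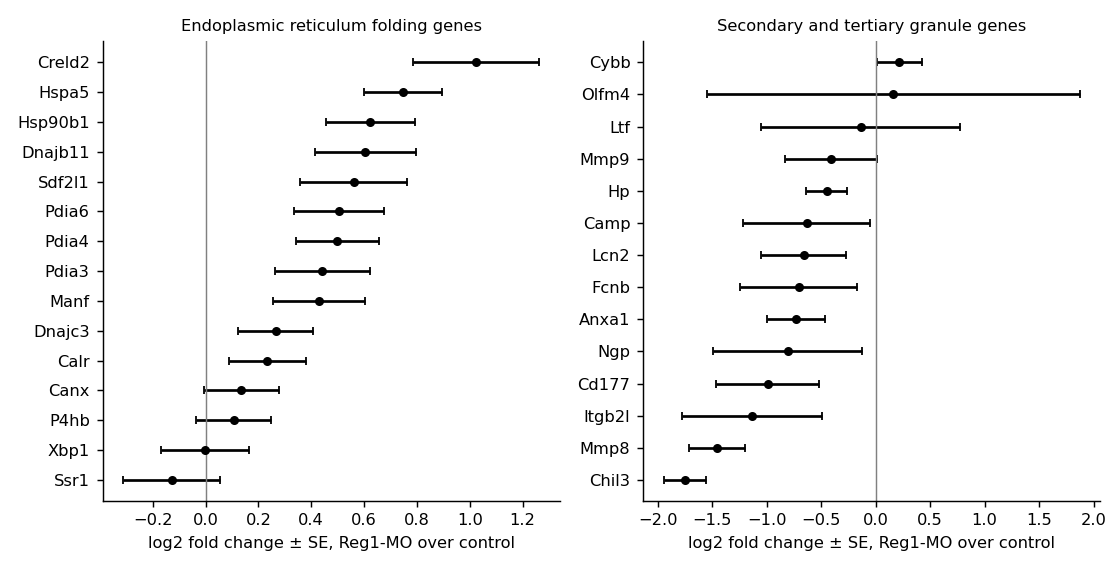
Log2 fold change (Reg1-MO over control, 2 libraries each, edgeR) with its standard error in granule-gene cells for 15 genes of protein folding in the endoplasmic reticulum and 14 secondary and tertiary granule genes; the horizontal axes differ. Hspa5 lies at 0.75 and Chil3 at -1.75, and no gene shown passed the adjusted threshold.

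Interferon response genes were uneven between libraries. All 20 lay above 0 (median 1.30), but 4 had no overlap and 0 were called. Ifitm3, a membrane protein that restricts virus entry, was 886 and 609 CPM in the controls, compared with 2039 and 1238 after Reg1-MO. The list summed to 2475 and 1255 CPM in the controls, compared with 5555 and 2557 after Reg1-MO, and macrophage markers summed to 4711 and 3731 against 8338 and 2625 CPM. Reg1-MO 1 was highest in both sums.

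Zc3h12a itself was 30.8 and 30.0 CPM in the controls, compared with 36.6 and 32.0 after Reg1-MO (log2 fold change 0.18 ± 0.16; edgeR adjusted p = 0.746). A morpholino acts on splicing or translation and need not change the transcript count, and the labels give no target site. Of 15 genes tested in a list of NF-kB feedback genes and reported Regnase-1 targets, 14 lay above 0 and Lcn2 below (median 0.54), 4 had no overlap and 0 were called. Its most abundant members were uneven: Il1b, the interleukin-1 beta gene, was 530 and 330 CPM in the controls, compared with 1748 and 544 after Reg1-MO, and Nfkbia, an NF-kB inhibitor, 339 and 324 against 566 and 318. Rel, an NF-kB subunit, was 78.1 and 74.5 against 140 and 119 CPM (0.77 ± 0.15).

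Some of the 33 genes that DESeq2 called rested on few cells. Ccl17, a chemokine of dendritic cells, was 0.505 and 0.105 CPM in the controls, compared with 29.8 and 17.1 after Reg1-MO, but 1 cell held 83.9% of its UMIs in Reg1-MO 1 and 1 cell held 100% in Reg1-MO 2. Likewise 1 cell held all 27 Ccr7 UMIs of Reg1-MO 2. Other calls were spread over many cells. Hist1h2ap, a replication-dependent histone gene, was 219 and 303 CPM against 65.4 and 58.2 and was found in 72.6% and 67.5% of control cells against 45.8% and 57.7% of Reg1-MO cells. Further histone genes, among them Hist1h2bc, Hist1h2ae and Hist1h1c, were also called lower. Tmsb10, which encodes an actin-binding peptide, was 1242 and 1131 against 2169 and 2083 CPM, and was found in at least 93.4% of the cells of each library.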

How the data were processed

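Single-cell RNA libraries (10x 3′ v3) of 2 control and 2 Reg1-MO samples were deposited as filtered matrices of UMI counts, not normalised. The authors' counting used Cell Ranger 5.0.1, per the file headers, and mm10 and Seurat 4.0 are named in the submitters' processing notes. The members and gene lists were chosen with earlier results of these data known.

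Barcodes under 500 UMIs or 200 genes, or with over 10% of UMIs from mitochondrial genes, were dropped (1.64% to 4.26% of each library). Doublets were called with Scrublet (scanpy 1.11.5) at 0.8% per 1000 barcodes and kept. Shares carry 95% Wilson intervals. Detection was compared after thinning cells to 5000 UMIs, which left out 10 members. Member counts were summed per library and fitted in R 4.3.3 with edgeR 4.0.16 (TMM, filterByExpr with a minimum of 10, quasi-likelihood, no replicate block, Benjamini-Hochberg). DESeq2 1.42.0 was the alternative. The edgeR step was tested on simulated counts with 200 of 11496 genes changed; 9 unchanged genes were called.

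Named were the 4 rule genes, the 20 leading genes by fold at 200 CPM or more, the 4 most abundant members of a described list and transcription factors at 5 CPM or more; not all are printed, and others were chosen after their values were seen. The split by Irf8 and Cebpe or Gfi1, and the limit of 100 rule UMIs, were added after seeing the data. The labels number replicates alike in both groups; the replicate 1 minus 2 differences correlated across genes at r = 0.35, which with 2 numbers per group does not establish pairing. Some genes of the lists are not reported here.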

Additional observations from a re-analysis of the deposited data

How the results depend on the processing

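The lower share of granule-gene cells kept its direction in all 17 alternatives run, from 2.95-fold (at least 5 rule UMIs) to 4.75-fold (thinned). Its difference lay between -3.39 and -3.12 points when each library was left out. Since the groups did not overlap, leaving out a library or adding the replicate block could not reverse it. With the replicate block it was -3.25 points (exact permutation p = 0.5, the smallest that the pairs allow). The number of called genes was 0 by edgeR, 33 by DESeq2, 338 without a filter on low counts and 3 with the replicate block, and 0 to 0 when each library was left out; the cause was not tested. Leaving out each library gave log2 fold changes of -1.04 to 0.11 for Prtn3 (0.11 without Reg1-MO 1) and a difference in the share with Mki67 or Top2a of -16.9 to 7.59 points (2.70 without control 1 and 7.59 without Reg1-MO 1). The summed level of the other primary granule genes, of which Lyz2 is the most abundant, differed by 0.17 on the log2 scale (the median over its genes was -0.17) and by 0.023 among cells with at least 100 rule UMIs. The shares split by Irf8 and by Cebpe or Gfi1 kept their direction in the 6 alternatives run for each. Since the groups did not overlap, neither the replicate block nor leaving out a library, both among these, could change it. With each library left out the shares differed by 8.13 to 19.4 and -23.3 to -11.7 points. With 71 and 96 granule-gene cells in the Reg1-MO libraries and 2 libraries per group, 2-fold changes were mostly below what the test could call.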
